A study of Homo sapiens with 10 samples.

Results

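The transforming growth factor beta (TGF-β) superfamily genes described here were the ligands of the TGF-β, activin, nodal and BMP branches, their cell surface receptors, the SMAD proteins that carry the signal to the nucleus, and the secreted antagonists that hold ligands away from receptors. They were chosen by gene symbol from a list of 43 genes, and 42 of them were analysed among the 64940 genes of the expression table: 18 ligands, 12 receptors, 6 SMADs and 6 antagonists. The remaining 1 was not analysed here. Expression was given as TPM, a transcript level corrected for length and scaled to one total per library, so levels of different genes could be set side by side.

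All 4 RNA-seq libraries came from H9, a single human embryonic stem cell (hESC) line, and each group held 2 libraries. The control libraries carried the wild-type genotype, and their labels describe spontaneously differentiated (SD) cells, whereas the series design and the study's methods call the control cells PGCLCs, that is, cells like primordial germ cells (PGCs) made in culture. The oeDAZL libraries came from hPGCLCs that overexpressed DAZL, a germ cell RNA-binding protein. According to the study's methods, differentiation was driven by added BMP4 and BMP8a protein, and lentivirus was added soon after its start. The section of the methods on miRNA libraries names a control virus that carried only GFP, given under the same BMP treatment as the DAZL virus. The labels of the control RNA-seq libraries name neither a virus nor BMP proteins, so, if the cultures differed, DAZL and that difference cannot be told apart in any comparison below. Nothing states that the libraries of a group were separate cultures, so the P-values measure only the spread between these libraries, which may be technical. In bulk RNA, fewer cells of a type and less RNA per cell cannot be told apart.

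As background, a TGF-β superfamily ligand is a secreted dimer that brings together type I and type II receptor kinases. TGF-β, activin and nodal receptors mostly phosphorylate SMAD2 and SMAD3, BMP receptors mostly phosphorylate SMAD1, SMAD5 and SMAD9, and both sets act with SMAD4. BMP4 is the signal that induces primordial germ cells, and nodal and activin signalling maintains human pluripotent cells and drives the formation of mesoderm and endoderm.

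The DAZL transcript was listed at 0 and 0.0333 TPM in control cells against 102 and 101 TPM in oeDAZL cells, and so followed the labels. Markers of PGCs did not follow them in the same way. TFAP2C lay between 44.3 and 53.9 TPM, PDPN between 32.9 and 58.5 TPM and KIT between 6.23 and 7.70 TPM. NANOS3 lay between 0.732 and 1.66 TPM in the 4 libraries, DND1 and CD38 lay below 1 TPM, and DDX4 was listed at 0 in all 4. In the list of 12 PGC markers, 1 of the 9 tested genes, PDPN, was higher in oeDAZL cells. The PDPN call was marginal (limma, unadjusted P = 0.0499). It missed 0.05 after quantile normalization and with the other pseudocount used below. Of the 9, 7 had a negative fold change, though none was called lower. GABRP and HAND1, which are expressed strongly in amnion, lay between 1208 and 1408 TPM and between 958 and 1250 TPM. Of the tested markers of other cells, POU5F1 was higher among 4 pluripotency genes, HAND1 was higher and TBXT lower among 6 primitive streak and mesoderm genes, NES was higher and PAX6 and OTX2 lower among 4 neural genes, and KDR was lower among 3 endothelial genes. For all tested genes the shares were 5.02% higher and 15.2% lower. The libraries listed between 26695 and 28019 genes above 0. TPM values hold no read counts, and the sequencing depth of the libraries is unknown.

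Of the 42 genes, 37 had a mean of at least 1 TPM and were tested, with limma on log2(TPM + 1), and a gene is called higher or lower here when its P-value was at most 0.05 before adjustment, the P-value threshold of the study. On that rule 7 of the 37 were lower in oeDAZL cells (BMP4, BMP7, TGFB2, INHBE, TGFBR1, FST and CER1) and 2 were higher (NOG and BMPR2). Among all 16687 genes tested, 15.2% were lower and 5.02% were higher, against 18.9% and 5.41% of the 37, so both shares lay near the background. On the log2(TPM + 1) scale none of the 37 also reached the 2-fold change that the study required, which 0.689% of all genes did. With a pseudocount of 0.1 in place of 1, which shrinks weak genes less, INHBE and CER1 reached it, 2 of the 37 beside 1.93% of all genes. None had a Benjamini-Hochberg adjusted p under 0.05, which 0.0599% of all genes had, and the lowest adjusted p among the 37 was 0.0836, for BMP4. With 2 libraries a group, an exact two-sided permutation test of a single gene cannot give a p below 0.333.

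The direction of the whole table matters for these counts. The median log2 fold change over all tested genes was -0.078 and 65.3% of them had a negative fold change, while the median of the 37 was 0.0045, with 19 values above and 18 below 0. After median-of-ratios scaling of the libraries the median of all genes was 0.013, and 11.2% of all genes were higher and 8.20% lower. Under that scaling 4 of the 37 were higher and 6 lower, and after quantile normalization 5 were higher and 6 lower, beside 8.40% and 9.07% of all genes. Under both, BMP6 and INHBA joined NOG and BMPR2 as higher, and TGFBR2 joined them after quantile normalization. TGFBR1 missed the threshold under median-of-ratios scaling and TGFB2 missed it after quantile normalization.

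**Figure D1:**
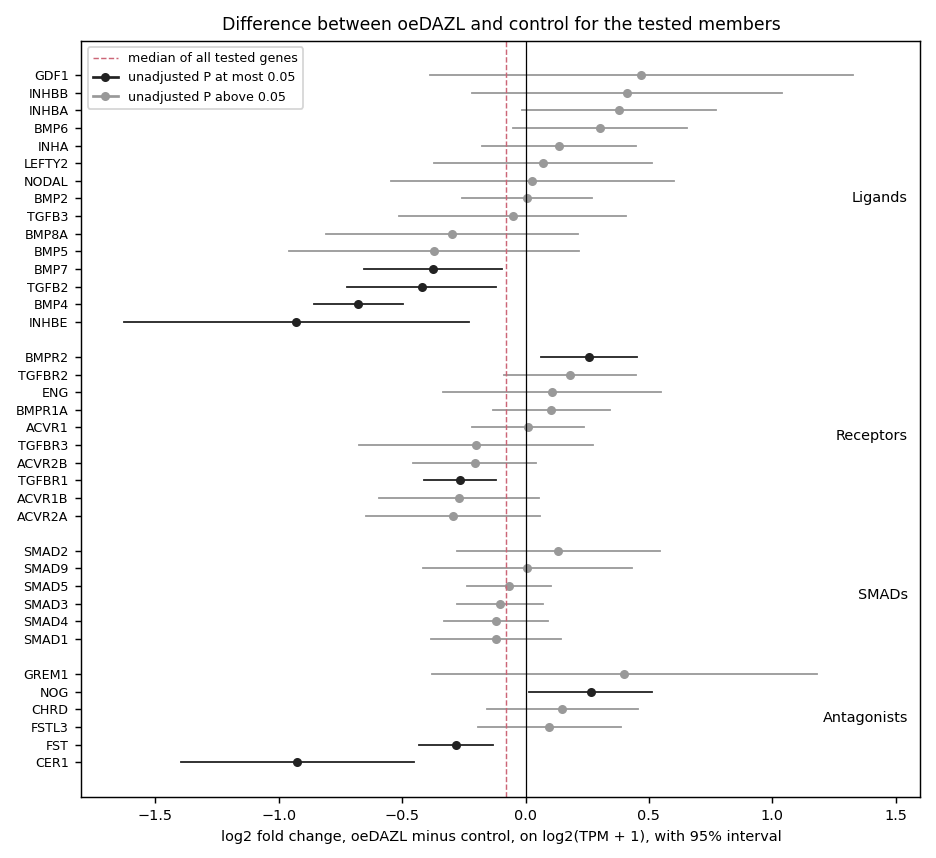
Log2 fold change (oeDAZL minus control, on log2(TPM + 1)) of the 37 tested genes by class, with 95% limma intervals as horizontal bars. Black points are the 9 genes with an unadjusted P-value of at most 0.05, and the dashed line is the median of all 16687 tested genes, -0.078; most of the grey intervals cross both lines.

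Because the study concerns microRNAs (miRNAs) and DAZL, the longest annotated 3′ untranslated region (3′UTR) of each gene was searched, on the transcript's own strand, for the perfect 8-base match to 5 miRNAs that the study names. Such a match pairs with bases 2 to 8 of the miRNA, the seed, and ends in A. The mature sequences from RefSeq follow, with the seed in capitals, since the seeds define the matches. No 2 of these 5 share a seed.
let-7a-5p: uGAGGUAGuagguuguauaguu
miR-21-5p: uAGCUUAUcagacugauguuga
miR-22-3p: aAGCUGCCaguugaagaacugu
miR-125b-5p: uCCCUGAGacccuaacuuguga
miR-199a-3p: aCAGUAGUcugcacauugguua

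The let-7 match CUACCUCA occurred in the 3′UTR of GREM1, TGFBR1, TGFBR3, SMAD2 and ACVRL1, of which all but ACVRL1 were tested. It occurred in 5.69% of the 13123 tested genes with an annotated 3′UTR. The miR-21 match AUAAGCUA occurred in TGFB2 and BMPR2, and in 3.09% of those genes. The miR-22 match GGCAGCUA (3.09% of those genes) occurred in CHRD, the miR-125b match CUCAGGGA (7.12%) in TGFBR3, SMAD9 and BMPR1B, and the miR-199a match ACUACUGA (3.38%) in GREM1 and ACVR2B. The CHRD match lies at chr3:184382898-184382905, nearer the start than the end of a plus-strand gene that spans 184380054 to 184390736. It belongs to the transcript with the longest 3′UTR and need not lie in the 3′UTR of other CHRD transcripts. Of the 9 genes called higher or lower, 3 held a match, and these are printed below with the match in capitals within 30 bases of the transcript strand, beside 1 let-7 match in a gene that did not pass the test. Positions are those of the matches in hg38. The TGFBR1 match lies at chr9:99149380-99149387, plus strand, base 75 of a 3′UTR of 4887 bases. The TGFB2 match lies at chr1:218442644-218442651, plus strand, base 1282 of 3257. The BMPR2 match lies at chr2:202567256-202567263, plus strand, base 7554 of 8049, and the TGFBR3 match at chr1:91680738-91680745, minus strand, base 5268 of 5670.
TGFBR1, let-7 match: ggtcaattgttCTACCTCActgagagggaa
TGFBR3, let-7 match: ttgtactgtaaCTACCTCAtggtttgaatg
TGFB2, miR-21 match: attattatgacATAAGCTAcctgggtccac
BMPR2, miR-21 match: acaggagaaacATAAGCTAcggagtattca

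The genes with a given match were too few to show a common direction or the lack of one. Of the 4 tested genes with a let-7 match, TGFBR1 was lower (log2 fold change -0.27) and the values of TGFBR3 (-0.20), SMAD2 (0.13) and GREM1 (0.40) did not pass the test. The signs of SMAD2 and GREM1 turned when a library was left out. Their let-7 matches lie at base 20667 of 32870 and base 11773 of 13861. Of the pair with a miR-21 match, TGFB2 was lower (-0.42) and BMPR2 was higher (0.26). These matches are descriptions of the annotated sequence, and which 3′UTR these cells use was not measured.

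Among the ligands, 4 of the 15 tested genes (26.7%) were lower in oeDAZL cells (BMP4, BMP7, TGFB2 and INHBE) and none was higher. Among all tested genes 15.2% were lower and 5.02% were higher. Under median-of-ratios scaling 2 ligands were higher and 4 lower, beside 11.2% and 8.20% of all genes. After quantile normalization 2 were higher and 3 lower, beside 8.40% and 9.07%. The median log2 fold change of the ligands was 0.0045. BMP4 was the most abundant ligand. It stood at 271 and 248 TPM in control cells and at 154 and 170 TPM in oeDAZL cells. Both oeDAZL values lay below both control values. Its log2 fold change was -0.68 with a standard error (SE) of 0.074 (limma, adjusted p = 0.0836), which corresponds to a fall from 259.8 ± 16.1 to 162 ± 11.7 TPM (SD, n = 2). BMP4 protein added to the medium contributes no reads, so these levels are of the cells' own transcript from chromosome 14 (53949736 to 53958761, minus strand).

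BMP7, a BMP that can pair with BMP4 in a dimer, was measured at 56.4 and 45.0 TPM in control cells and at 37.5 and 39.8 TPM in oeDAZL cells. The groups did not overlap, although the control libraries lay further apart than the oeDAZL libraries (log2 fold change -0.37, SE 0.11, adjusted p = 0.168). TGFB2, the TGF-β isoform with the miR-21 match above, stood at 13.9 and 15.7 TPM in control cells and at 11.6 and 9.97 TPM in oeDAZL cells (log2 fold change -0.42, SE 0.12, adjusted p = 0.161). INHBE, an inhibin beta subunit best known from liver, was much lower in level, at 2.99 and 1.57 TPM in control cells and 0.749 and 0.615 TPM in oeDAZL cells. Its log2 fold change was -0.93 with an SE of 0.29 (adjusted p = 0.171), and the spread of the control libraries was wide.

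The other BMP ligands did not pass the test. BMP2, which signals through the same receptors as BMP4, stood at 13.2, 11.8, 12.7 and 12.4 TPM in control replicates 1 and 2 and oeDAZL replicates 1 and 2, and its log2 fold change of 0.0045 had a 95% interval from -0.26 to 0.27. The values of BMP2 thus overlapped, while those of BMP4 did not. BMP6 stood at 5.32 and 6.18 TPM in control cells and at 7.71 and 6.91 TPM in oeDAZL cells (log2 fold change 0.30, 95% interval from -0.050 to 0.65). BMP6 overlaps TXNDC5 on the opposite strand, which stood between 168 and 183 TPM. BMP5 (-0.37) and BMP8A (-0.30) lay between 0.667 and 2.45 TPM, with intervals that spanned 0.

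The activin and inhibin subunits differed in level. INHA, the subunit that turns an activin dimer into an inhibin, stood at 22.0, 28.6, 27.7 and 27.5 TPM in the same order of libraries. INHA overlaps OBSL1, on the opposite strand, which stood between 282 and 304 TPM. It is not stated whether reads were counted by strand, so reads from bases in exons of both genes could not be told apart. Whether their exons overlap was not examined. INHBA, the subunit of activin A, stood at 3.23 and 3.78 TPM in control cells and at 4.85 and 4.84 TPM in oeDAZL cells. Its groups did not overlap and its log2 fold change was 0.38, with a 95% interval from -0.013 to 0.77. INHBB was below 2.3 TPM in every library, with a log2 fold change of 0.41 and a 95% interval from -0.22 to 1.04.

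The nodal branch was expressed weakly on the ligand side. NODAL stood at 2.68 and 3.22 TPM in control cells and at 2.35 and 3.83 TPM in oeDAZL cells, and the groups overlapped (log2 fold change 0.028, 95% interval from -0.54 to 0.60). LEFTY2, a feedback inhibitor that nodal induces, stood at 10.01 and 13.4 TPM in control cells and at 10.7 and 14.0 TPM in oeDAZL cells (log2 fold change 0.071). In both groups the replicate 2 library had the higher LEFTY2 value. LEFTY1, its close paralogue, lay between 0.278 and 0.804 TPM, under the filter. Of the 100-base windows of the longest LEFTY1 transcript 17.4% also occur in a LEFTY2 transcript, so reads of the pair could be divided only in part. GDF1 stood at 1.47 and 3.70 TPM in control cells and at 2.89 and 4.70 TPM in oeDAZL cells. GDF1 lies within the transcribed region of CERS1 on the same strand, and CERS1 stood at 15.8 and 13.6 TPM in control cells and at 11.7 and 11.9 TPM in oeDAZL cells, so reads of the pair could not be told apart with confidence. TGFB3 stood at 4.21 and 3.59 TPM in control cells and at 4.28 and 3.22 TPM in oeDAZL cells, and overlaps IFT43 on the opposite strand.

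The remaining ligands under the filter were BMP8B, between 0.208 and 0.611 TPM, and GDF3, a ligand of pluripotent cells, which was listed at 0 in 1 library of each group and at no more than 0.421 TPM in the others. Of the 100-base windows of the longest BMP8A transcript 7.50% also occur in a BMP8B transcript. BMP8A stood at 2.45 and 1.95 TPM in control cells and at 1.62 and 1.57 TPM in oeDAZL cells. BMP8A is the gene for the other protein that the methods describe as added to the medium.

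**Figure D2:**
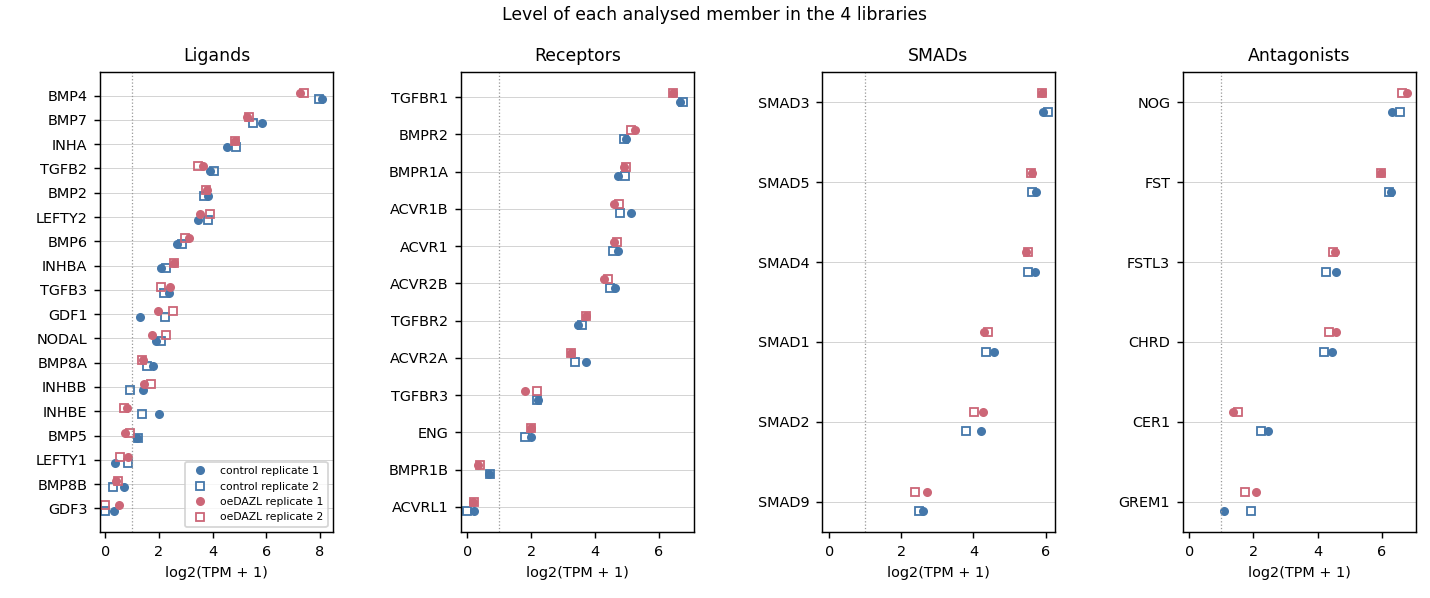
Expression of all 42 genes on a log2(TPM + 1) axis, by class, with 1 mark for each library (filled circles replicate 1, open squares replicate 2, blue control, red oeDAZL); the dotted line is at 1 TPM. BMP4 is the highest ligand and TGFBR1 the highest receptor, and both have all oeDAZL marks to the left of the control marks.

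Among the receptors, 1 of the 10 tested genes (10%) was lower and 1 (10%) was higher in oeDAZL cells, beside 15.2% and 5.02% of all genes. The median log2 fold change of the receptors was -0.096. TGFBR1, the type I receptor of TGF-β, was the most abundant receptor at 101 and 107 TPM in control cells. It stood at 85.8 and 86.4 TPM in oeDAZL cells. The gap between the groups was wider than either gap between replicates (log2 fold change -0.27, SE 0.060, adjusted p = 0.114), though the difference fell to -0.17 under median-of-ratios scaling. BMPR2, the type II receptor of BMPs, stood at 30.1 and 28.7 TPM in control cells and at 36.7 and 34.0 TPM in oeDAZL cells (log2 fold change 0.26, SE 0.080, adjusted p = 0.171).

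The other abundant receptors did not pass the test. BMPR1A, the main type I receptor of BMP4, stood at 25.5 and 29.7 TPM in control cells and at 29.1 and 30.3 TPM in oeDAZL cells (log2 fold change 0.10, 95% interval from -0.13 to 0.34). ACVR1B, the type I receptor of activin and nodal, stood at 33.5 and 26.2 TPM in control cells and at 22.9 and 26.0 TPM in oeDAZL cells (log2 fold change -0.27, 95% interval from -0.59 to 0.055). ACVR1, another BMP type I receptor, stood at 25.0 and 22.6 TPM in control cells and at 23.0 and 24.9 TPM in oeDAZL cells. The type II receptors of activin had similar differences, at -0.21 for ACVR2B and -0.29 for ACVR2A, neither of which passed the test, and both groups were separate for each of them. ACVR2A and ACVR2B each overlap a gene on the opposite strand, ORC4 and ACVR2B-AS1.

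TGFBR2, the type II receptor of TGF-β, stood at 10.02 and 11.1 TPM in control cells and at 12.1 and 12.1 TPM in oeDAZL cells (log2 fold change 0.18, 95% interval from -0.087 to 0.45). The co-receptors TGFBR3 (-0.20) and ENG (0.11) lay between 2.49 and 3.65 TPM in all libraries and did not pass the test. BMPR1B, a type I receptor of BMPs, was under the filter, at 0.581 and 0.619 TPM in control cells and at 0.272 and 0.309 TPM in oeDAZL cells. ACVRL1, a type I receptor of endothelium, was at no more than 0.153 TPM in any library. Of the endothelial markers KDR lay between 8.23 and 12.7 TPM, TEK between 5.34 and 6.72 TPM and CDH5 between 1.92 and 2.56 TPM, while VWF and TIE1 were below 1 TPM and PECAM1 was listed at 0 in all 4 libraries.

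None of the 6 SMADs was higher or lower, beside 5.02% and 15.2% of all genes. Their log2 fold changes ran from -0.12 to 0.13, a narrower range than in any other class. SMAD3, which acts downstream of TGF-β, activin and nodal, stood at 60.3 and 66.2 TPM in control cells and at 58.4 and 59.0 TPM in oeDAZL cells (log2 fold change -0.10, 95% interval from -0.28 to 0.069). SMAD5, which acts downstream of BMPs, stood at 52.1 and 48.5 TPM in control cells and at 48.2 and 47.6 TPM in oeDAZL cells (-0.068, 95% interval from -0.24 to 0.10). SMAD4, the shared partner, stood at 51.4, 44.5, 43.3 and 44.5 TPM in control replicates 1 and 2 and oeDAZL replicates 1 and 2. For SMAD4 the highest value was that of control replicate 1, and the other 3 lay together. SMAD1 stood at 22.7 and 19.5 TPM in control cells and at 18.5 and 20.1 TPM in oeDAZL cells, and SMAD2 at 17.6 and 12.8 against 18.2 and 15.1 TPM. SMAD9, the least abundant, lay between 4.25 and 5.59 TPM.

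Among the 6 antagonists, NOG was higher, FST and CER1 were lower, and FSTL3, CHRD and GREM1 did not pass the test. These calls were 16.7% higher and 33.3% lower, beside 5.02% and 15.2% of all genes, in a class of only 6. NOG, which binds BMP4 and BMP7 outside the cell, stood at 78.2 and 94.8 TPM in control cells and at 108 and 98.9 TPM in oeDAZL cells. The groups did not overlap, but control replicate 2 lay close to oeDAZL replicate 2 (log2 fold change 0.26, SE 0.10, adjusted p = 0.231). FST, which binds activin and some BMPs, stood at 76.7 and 73.3 TPM in control cells and at 61.6 and 61.4 TPM in oeDAZL cells (log2 fold change -0.28, SE 0.062, adjusted p = 0.107, with a log2 fold change of -0.18 under median-of-ratios scaling). CER1, an antagonist of nodal and BMPs secreted by endoderm, stood at 4.53 and 3.71 TPM in control cells and at 1.546 and 1.84 TPM in oeDAZL cells (log2 fold change -0.92, SE 0.19, adjusted p = 0.104). CER1 and INHBE had the most negative fold changes of the 37 genes, and both were expressed below 5 TPM.

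The endoderm genes measured beside CER1 gave mixed values. Of 6 tested endoderm markers 1 (16.7%) was lower, beside 15.2% of all genes. It was AFP, at 36.3 and 13.1 TPM in control cells and 8.91 and 11.6 TPM in oeDAZL cells. AFP missed the threshold under both scalings, and the summed level of the list of 7 was 268 and 162 TPM against 165 and 207 TPM. FOXA2 stood between 1.12 and 1.31 TPM. The part of endoderm cells in the CER1 difference was not tested.

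FSTL3, a relative of FST, stood at 22.7 and 18.3 TPM in control cells and at 22.2 and 21.5 TPM in oeDAZL cells. CHRD, a BMP antagonist, stood at 20.7 and 17.3 TPM in control cells and at 22.9 and 19.5 TPM in oeDAZL cells, and it overlaps THPO on the opposite strand. GREM1, also a BMP antagonist, stood at 1.10, 2.78, 3.19 and 2.30 TPM in control replicates 1 and 2 and oeDAZL replicates 1 and 2, with the lowest value in control replicate 1. The groups overlapped for all 3.

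Counting the 37 genes by separation alone, 14 had both oeDAZL values below both control values and 7 had both above. Among all tested genes the shares were 38.4% and 16.0%. The separated genes included all 9 that were called and, among the rest, INHBA, BMP6, INHBB, TGFBR2 and ENG on the higher side and BMP5, BMP8A, ACVR1B, ACVR2A, ACVR2B, SMAD3 and SMAD5 on the lower side.

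Some of the 9 calls rested on single libraries. BMP4, FST, CER1 and TGFBR1 kept a P-value of at most 0.05 whichever library was left out. BMP7 missed it without oeDAZL replicate 1, and its log2 fold change was -0.21 without control replicate 1. TGFB2 missed it without control replicate 2 or oeDAZL replicate 2. INHBE missed it without control replicate 1 (log2 fold change -0.61) or oeDAZL replicate 2. BMPR2 missed it without control replicate 2 or oeDAZL replicate 1. NOG missed it without control replicate 1 (log2 fold change 0.13) or oeDAZL replicate 1, and its fold change was 0.40 without control replicate 2.

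Leaving out a library also brought genes past the threshold. Without control replicate 2, INHBA, INHA, GREM1 and GDF1 were higher and ACVR1B, ACVR2A, ACVR2B and SMAD4 were lower. The counts were then 5 higher and 10 lower, beside 8.04% and 19.7% of all genes. Without control replicate 1, FSTL3 was higher and SMAD3 was lower. In these fits the single library left in a group was assumed to vary like the other group.

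**Figure D3:**
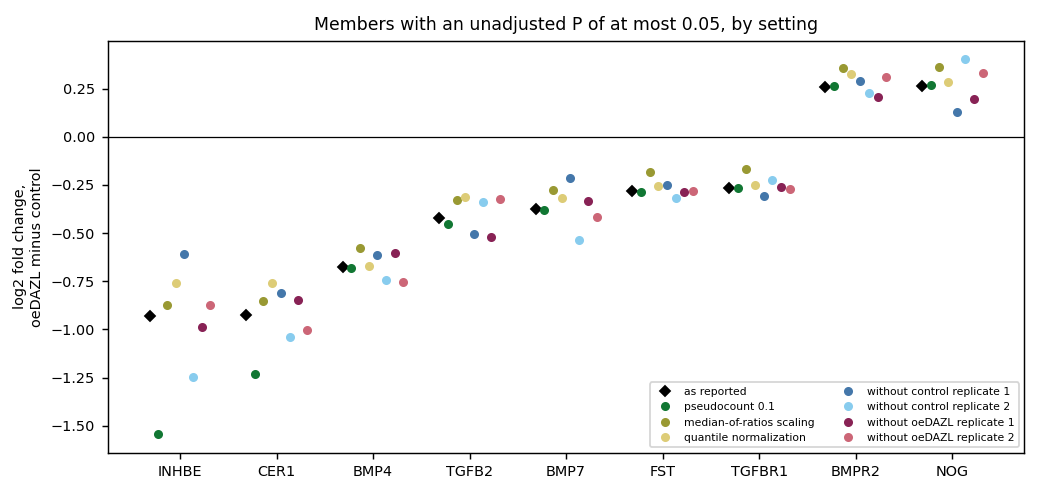
Log2 fold change (oeDAZL minus control) of the 9 genes with an unadjusted P-value of at most 0.05, as reported (black diamonds) and under other pseudocounts, scalings and with 1 library left out (coloured circles). Every circle stays on the side of 0 of its diamond; INHBE and CER1 shift the most with the pseudocount, to -1.54 and -1.23 at a pseudocount of 0.1.

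A wider list of 85 other genes of the pathway was examined in the same fit. Of the 65 that were tested, 14 (21.5%) were higher and 16 (24.6%) were lower, beside 5.02% and 15.2% of all genes. Under median-of-ratios scaling 19 were higher and 9 lower, beside 11.2% and 8.20% of all genes. After quantile normalization 17 were higher and 10 lower, beside 8.40% and 9.07%. Without oeDAZL replicate 1 both counts were smaller, and so were both shares of all genes. Only DCN also reached a 2-fold change, which it did not under either scaling, and none had an adjusted p under 0.05. The median log2 fold change of the 65 was -0.011.

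Of 11 tested target genes, 5 (45.5%) were higher in oeDAZL cells, beside 5.02% of all genes. They were ID1, ID2, ID3 and ID4, which encode inhibitors of differentiation that BMP signalling induces, and the homeobox gene MSX2. ID1 stood at 828 and 749 TPM in control cells and at 1008 and 978 TPM in oeDAZL cells (log2 fold change 0.33, adjusted p = 0.0962). ID2 stood at 294 and 287 against 367 and 379 TPM (0.36, adjusted p = 0.0896). ID3 (0.53), ID4 (0.42) and MSX2 (0.28) also had both oeDAZL values above both control values. ID2 and ID4 each overlap a non-coding gene on the opposite strand that stood below 5 TPM. The ID genes thus had higher transcript levels in the same libraries in which the BMP4 transcript was lower. TGFBI, a target of TGF-β that is named after its values were seen, was lower (-0.24), but not under median-of-ratios scaling.

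Of 8 tested inhibitory SMADs and nuclear partners of SMADs, 3 (37.5%) were higher, none was lower and 5 did not pass the test. The shares of all genes were 5.02% and 15.2%. The inhibitory SMADs, which are themselves induced by the pathway and block it, were both higher. SMAD6, which acts mainly on BMP signals, stood at 36.9 and 39.8 TPM in control cells and at 55.04 and 49.4 TPM in oeDAZL cells (log2 fold change 0.44, SE 0.084, adjusted p = 0.0961). SMAD7 stood at 43.6 and 43.8 against 49.9 and 48.3 TPM (0.16, adjusted p = 0.238), and it missed the threshold whichever single library was left out. SKIL, a nuclear repressor of SMADs, was higher (0.28), as was PMEPA1, a membrane protein that holds back TGF-β signalling (8.66 and 8.36 against 12.7 and 12.5 TPM, 0.51). PMEPA1 was listed among 13 tested cytoplasmic regulators, of which 1 (7.69%) was higher and 1 (7.69%) was lower. BAMBI, a decoy receptor induced by BMPs, stood at 754, 653, 678 and 708 TPM in control replicates 1 and 2 and oeDAZL replicates 1 and 2, and its groups overlapped.

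**Figure D4:**
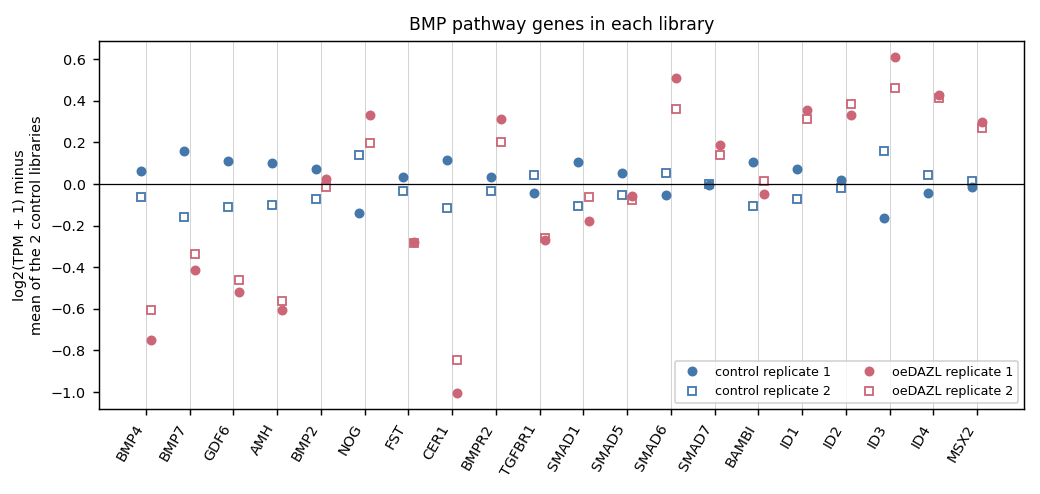
Level of 20 BMP ligands, antagonists, receptors, SMADs and targets in each library, as log2(TPM + 1) minus the mean of the 2 control libraries. The oeDAZL libraries (red) lie below the control libraries (blue) for BMP4, BMP7, GDF6, AMH, FST, CER1, TGFBR1 and SMAD5 and above them for NOG, BMPR2, SMAD6, SMAD7, ID1 to ID4 and MSX2.

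Other ligands and antagonists outside the list of 43 were also measured. GDF6, a BMP-type ligand, stood at 130 and 111 TPM in control cells and at 83.7 and 87.1 TPM in oeDAZL cells (log2 fold change -0.49, adjusted p = 0.0896). AMH, the anti-Müllerian hormone, which signals through BMP-type SMADs, stood at 32.3 and 28.0 against 19.5 and 20.1 TPM (-0.58, adjusted p = 0.0896). These were the 2 lower genes (40%) among 5 other tested ligands, and none was higher, beside 15.2% and 5.02% of all genes. Among 9 other tested antagonists, 2 (22.2%) were higher and 3 (33.3%) were lower, beside 5.02% and 15.2% of all genes. BMPER (0.56) and FSTL1 (0.22) were higher. DCN, a matrix proteoglycan that binds TGF-β (10.1 and 6.45 against 3.05 and 3.54 TPM, log2 fold change -1.08), SOSTDC1 (-0.72) and VASN (-0.36) were lower. FSTL1 and VASN are named after their values were seen, and VASN missed the threshold under both scalings. TDGF1, the co-receptor of nodal, stood at 5.05 and 8.26 TPM in control cells and at 14.1 and 10.7 TPM in oeDAZL cells (0.82, adjusted p = 0.155), and it missed the threshold without oeDAZL replicate 1. The co-receptor NEO1 was lower (-0.40). Among 6 other tested receptors and co-receptors, 1 (16.7%) was higher and 1 (16.7%) was lower.

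Of 13 tested genes that store or activate the ligands, 7 (53.8%) were lower and 2 (15.4%) were higher, beside 15.2% and 5.02% of all genes. The lower genes included LTBP3 (17.3 and 15.4 against 8.12 and 9.75 TPM, log2 fold change -0.81), LTBP1 (-0.33) and LTBP4 (-0.27), which tether latent TGF-β to the matrix, the protease BMP1 (-0.35) and the matrix protein EMILIN1 (-0.84). FBN2 (0.39), a fibrillin, and LTBP2 (0.64), named after its values were seen, were higher. Under either scaling of the libraries, 4 of the 13 were lower (BMP1, LTBP1, LTBP3 and EMILIN1) and 2 higher, since LTBP4, PCSK5 and FBN1, the last 2 named after their values were seen, missed the threshold. Without oeDAZL replicate 1 fewer of the 13 were called in either direction, and so were fewer of all genes. FBN2 and LTBP3 each overlap a gene on the opposite strand.

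Of 8 mesenchyme markers 5 (62.5%) were lower in oeDAZL cells and none was higher, beside 15.2% and 5.02% of all genes. COL3A1 stood at 583 and 479 against 224 and 220 TPM (log2 fold change -1.25, adjusted p = 0.0344), and COL1A1, COL1A2, ACTA2 and LUM were the other lower genes, of which COL1A2 missed the threshold under median-of-ratios scaling. The remaining 3 had positive fold changes that did not pass the test, at 0.19 for VIM, 0.57 for POSTN and 0.098 for TWIST1. Their summed level was 4169 and 4416 TPM in control cells and 3633 and 3594 TPM in oeDAZL cells, and VIM, the most abundant, stood at 1188 and 1460 TPM in control cells and at 1539 and 1469 TPM in oeDAZL cells, so its groups did not overlap and oeDAZL cells had the higher values. The part of mesenchymal cells in the lower levels of TGFB2, DCN, LTBP1, LTBP3, LTBP4 and the other lower genes was not tested. Of 10 amnion and trophoblast markers 4 (40%) were lower and 1 (10%), HAND1, was higher, beside 15.2% and 5.02% of all genes. The lower genes were CGA (-1.18), CDX2 (-0.69), ISL1 (-0.49) and VTCN1 (-0.38). The summed level of the 10 lay between 3462 and 3708 TPM in all 4 libraries. GABRP, HAND1 and KRT7 were the most abundant of them, so the sum says little about the lower genes. The part of amnion and trophoblast cells in the level of BMP4 and its relatives was not tested either.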

How the data were processed

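RNA was sequenced from 4 libraries of H9-derived cells (2 control, 2 oeDAZL); 6 miRNA-seq samples were not analysed here. The authors trimmed reads with Trim Galore 0.6.4, aligned them to hg38 with HISAT2 2.1.0, kept uniquely mapped reads and deposited TPM values from StringTie 2.1.4 (versions per the submitters' processing notes); the annotation release is not given in the sources used here. Reads shared by near-identical genes are lost in such an alignment. TPM holds no read counts, so the count test of the study could not be used.

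Here, log2(TPM + 1) was fitted with limma 3.58.1 (trend on mean expression) in R 4.3.3 over 16687 genes with a mean of at least 1 TPM in the 4 libraries, two-sided, with Benjamini-Hochberg adjustment over all of them; the fit was tested on simulated data. Repeated entries (18) and pseudoautosomal copies (45) were left out. Fold changes are on the log2(TPM + 1) scale, which understates changes of weak genes. Positions and 3′UTRs came from GENCODE 44. Alternatives were another pseudocount, filters, 2 scalings, a replicate block, no trend and leaving out each library.

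The genes, the wider lists and the tests were chosen with earlier results of these data known. Values are given for each listed gene with a P-value of at most 0.05 or a 2-fold change, for up to 5 most abundant genes of a class and for overlapping pairs; of the wider list, for at most 10 genes in each direction by P-value and for SMAD6, SMAD7, BAMBI, ID1 to ID4 and TDGF1. Values of 1 gene of the wider list are not reported here. Marker lists of PGC, pluripotent, primitive streak, mesenchyme, amnion, endoderm, neural and endothelial cells were examined as checks of the labels.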

Additional observations from a re-analysis of the deposited data

How the results depend on the processing

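Among the 37 tested genes, the 7 lower calls became 5 to 10 in number and none of the alternatives moved that count by over 1.5 times. The 2 higher calls became 1 without the filter on mean TPM, 4 under median-of-ratios scaling, 5 after quantile normalization, 1 with the replicate block, and 0 to 5 when a library was left out (0 without oeDAZL replicate 1, 5 without control replicate 2). The count at 2-fold and P of at most 0.05, 0 as reported, was 2 with a pseudocount of 0.1 and 0 to 2 when a library was left out. The median log2 fold change of 0.0045 became 0.092 under median-of-ratios scaling, 0.10 after quantile normalization, and -0.068 to -0.019 when a library was left out, so its sign was not stable.

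The shared replicate numbers are not stated to mark a batch, and the deviations of same-numbered libraries had a correlation of -0.10 over genes. With the replicate block, 7 genes were lower and 1 was higher, beside 12.6% and 4.02% of all genes. None reached 2-fold, and NOG and SMAD7 missed the threshold. With the numbers crossed, chosen after seeing the data, 8 were lower and 2 higher.

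Without the trend, NOG, BMP7 and SMAD7 missed the threshold and INHBA and BMP5 passed it. NOG also missed it without the filter. Of genes not called, the sign turned for TGFB3 under median-of-ratios scaling (0.028) and quantile normalization (0.10), and for SMAD5 (0.032) and BAMBI (0.084) under median-of-ratios scaling. When a library was left out, the log2 fold change ranged from -0.054 to 0.25 for FSTL3, -0.022 to 0.82 for GREM1, -0.047 to 0.32 for INHA, -0.068 to 0.077 for BMP2, -0.12 to 0.26 for LEFTY2, -0.21 to 0.11 for TGFB3, -0.24 to 0.29 for NODAL, -0.00079 to 0.21 for BMPR1A, -0.060 to 0.078 for ACVR1, -0.081 to 0.35 for SMAD2, -0.16 to 0.17 for SMAD9 and -0.12 to 0.086 for BAMBI. The cause of these changes was not tested.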
